A study of Mus musculus with 6 samples.

Results

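The 9 genes described here, of the 32227 in the deposited matrices, govern where T cells go and where they stay. They were listed by symbol as genes of exit from the thymus, retention in a tissue and homing: Ccr7, S1pr1, Klf2, Cd69, Ccr9, Cxcr3, Cxcr6, Cx3cr1 and Cd44. Ccr7 and Ccr9 encode chemokine receptors that guide maturing thymocytes and later draw T cells to lymphoid organs and the gut. S1pr1 encodes the receptor for sphingosine 1-phosphate with which T cells leave the thymus and lymph nodes, Klf2 a transcription factor that raises S1pr1, and Cd69 a membrane protein that binds the S1pr1 receptor and removes it from the surface. Cxcr3, Cxcr6 and Cx3cr1 encode chemokine receptors of effector, resident and circulating effector T cells, and Cd44 an adhesion receptor for hyaluronan.

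Single-cell RNA of CD8 T cells was counted with PIPseq v3, a droplet-type chemistry that tags RNA molecules with unique molecular identifiers (UMIs), in thymus, spleen and B16-OVA melanoma. The mice were C57BL/6 adults older than 8 weeks, either Pdcd1fl/fl without Cre or Pdcd1 cKO, in which E8I Cd8a-Cre deletes the floxed Pdcd1 gene in CD8 T cells after positive selection. There was 1 library for each tissue and genotype, 6 in all: the thymic and splenic libraries each came from 1 mouse, and the tumor libraries were pools of 3 mice each, taken on day 12 after tumor injection. Thymus and spleen went through a negative-selection kit for CD8 T cells and tumors through dissociation, dead cell removal and CD8 microbeads. The labels call the thymic and splenic libraries baseline and give a day after injection for the tumor libraries only, so that tissue, isolation method and tumor injection cannot be told apart. With 1 library per group no difference has a replicate check. The intervals, all at 95%, cover counting error and not variation between mice. The exception is a t interval over the 3 tissues, given last, which is no replicate check either.

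Pdcd1, the deleted gene, was read first because it checks the labels. In cells with CD8 RNA (at least 1 UMI of Cd8a or Cd8b1), Pdcd1 stood at 2.46 CPM (UMIs of the gene scaled to 1000000 UMIs of all genes) in the thymic library labelled Pdcd1fl/fl and at 9.16 in the one labelled Pdcd1 cKO, from 9 and 116 UMIs. In the spleen Pdcd1 stood at 0.724 CPM, from 1 UMI, and at 12.2 CPM, from 89 UMIs. In the tumors Pdcd1 stood at 105 and 113 CPM, with a log2 ratio of 0.10 (−0.05 to 0.25). Pdcd1 RNA was therefore higher, not lower, in the thymic and splenic libraries labelled Pdcd1 cKO, and no lower in the tumor one. Whether the 3' reads of Pdcd1 fall inside the deleted part is not known from the files, so the RNA goes against the labels without settling them. Libraries are named by their labels throughout, pairs of values give the library labelled Pdcd1fl/fl first, log2 ratios between genotypes are Pdcd1 cKO over Pdcd1fl/fl, and each such direction rests on labels that Pdcd1 RNA goes against in thymus and spleen and does not tell apart in the tumors.

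Depth differed between libraries. All barcodes together held 6389966 and 19304377 UMIs in thymus, 5935926 and 8964626 in spleen, and 9401747 and 7924590 in tumors. Cells were kept with 500 genes or more, 1000 UMIs or more and no more than 20% of UMIs from mitochondrial genes, which left 1067 of 1067 and 2635 of 2674 barcodes in thymus, 1478 of 6929 and 4928 of 4963 in spleen, and 456 of 457 and 561 of 561 in tumors. Of the splenic barcodes labelled Pdcd1fl/fl, 5267 had fewer than 1000 UMIs. Median UMIs of filtered cells were 4361 and 5417 in thymus, 1320.5 and 1615 in spleen, and 13809.5 and 9510 in tumors. CD8 RNA was read in 589 and 1753 thymic cells, 863 and 3885 splenic cells, and 344 and 512 tumor cells, which is 55.2% and 66.5%, 58.4% and 78.8%, and 75.4% and 91.3% of filtered cells. Cells without CD8 RNA numbered 478 and 882, 615 and 1043, and 112 and 49. The splenic libraries shared 2 barcodes before the filter and 0 after it, and no other pair of libraries shared any.

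RNA of other lineages set the tumor libraries apart. In cells with CD8 RNA, the 6 T cell markers were all read in every library and summed to 5665 and 5318 CPM in thymus, 3717 and 4729 in spleen, and 3057 and 4505 in tumors, with Trbc2 the most abundant except in the splenic library labelled Pdcd1fl/fl, where it was Cd3d. Of the 5 melanocyte markers, 3 and 4 were read in thymus (5.47 and 4.42 CPM in sum; Pmel and Tyrp1 at 0 in the library labelled Pdcd1fl/fl) and 2 and 4 in spleen (2.17 and 2.87 CPM). All 5 were read in both tumor libraries and summed to 6930 and 3949 CPM, led by Dct and by Pmel. The 6 macrophage and monocyte markers summed to 4.92 and 5.21 CPM in thymus (4 read in each), 3.62 and 11.3 in spleen (2 and 5 read) and 64.0 and 428 in tumors (6 read in each, led by Lyz2). The 7 mature dendritic cell markers summed to 7.11 and 4.11 CPM (4 and 5 read), 7.24 and 4.37 CPM (2 and 4 read), and 24.3 and 16.1 CPM (5 and 7 read, led by Fscn1, with Xcr1 and Clec9a at 0 in the tumor library labelled Pdcd1fl/fl).

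Of the remaining lineages, the 4 B cell markers summed to 14.0 and 6.55 CPM in thymus (2 read in each), 13.0 and 14.9 in spleen (2 and 4 read), and 3.15 and 2.54 in tumors (4 and 2 read). Ms4a1, a defining B cell marker, was at 0 in both thymic libraries, in the splenic library labelled Pdcd1fl/fl and in the tumor library labelled Pdcd1 cKO. The 3 granulocyte progenitor markers summed to 0 and 0.237 CPM in thymus (0 and 1 read), 0 and 76.3 in spleen (0 and 3 read, led by Mpo) and 2.55 and 0.848 in tumors (2 read in each). The 3 erythroid markers summed to 0.274 and 6.48 CPM (1 and 3 read), 0 and 23.9 CPM (0 and 3 read, led by Hbb-bs), and 1.20 and 0.565 CPM (3 read in each). The 3 stromal markers summed to 67.0 and 11.1 CPM in thymus (3 read in each, led by Dcn), 0.724 and 6.42 in spleen (1 and 3 read), and 135 and 0.565 in tumors (3 and 2 read, led by Col1a1 in the library labelled Pdcd1fl/fl). The 3 innate-like markers, led in thymus by Trdc, were all read in thymus and summed to 156 and 106 CPM there, 8.69 and 12.7 in spleen, and 1.80 and 5.79 in tumors.

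The 4 genes of immature thymocytes (Rag1, Rag2, Dntt and Ptcra) summed to 487 and 315 CPM in thymic cells with CD8 RNA, with all 4 read and Dntt the most abundant. They summed to 2.17 and 4.23 CPM in spleen and 20.2 and 0.989 in tumors, where 2 were read in each library and Rag1 and Rag2 stood at 0. Cd4 stayed low in cells with CD8 RNA, at 1.37 and 3.40 CPM in thymus, 0.724 and 2.87 in spleen, and 1.35 and 1.55 in tumors. Cd8b1 stood at 326 and 439.9 CPM, 865 and 1048 CPM, and 259 and 443 CPM in the 3 tissues, and Cd8a at 146 and 216, 322 and 309.8, and 185 and 246 CPM. The Y-chromosome gene Ddx3y was read at 246 and 264 CPM in thymus, 320.1 and 457 in spleen, and 302 and 334 in tumors, while Xist had 0 to 6 UMIs in any library. In the tumors, 238 of 344 and 254 of 512 cells with CD8 RNA held at least 3 UMIs of other lineages, against 4 and 11 cells in thymus and 3 and 9 in spleen. No doublet caller was run and no cell was left out as a doublet, so tumor ratios between libraries are given for all cells with CD8 RNA and again for those with fewer than 3 such UMIs.

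The first question was how each gene is distributed over the 3 tissues. The egress genes S1pr1 and Klf2 were highest in spleen or thymus and lowest in tumors, Ccr9 was a thymic gene, Cxcr6 and Cx3cr1 were highest in tumors, and Ccr7 and Cd44 had no single tissue order. Cd69, the antagonist of S1pr1, ran with the egress genes: it too was lowest in the tumors. These orders were read in cells with CD8 RNA, and the plot of levels with and without CD8 RNA shows them for all 6 libraries.

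**Figure D1:**
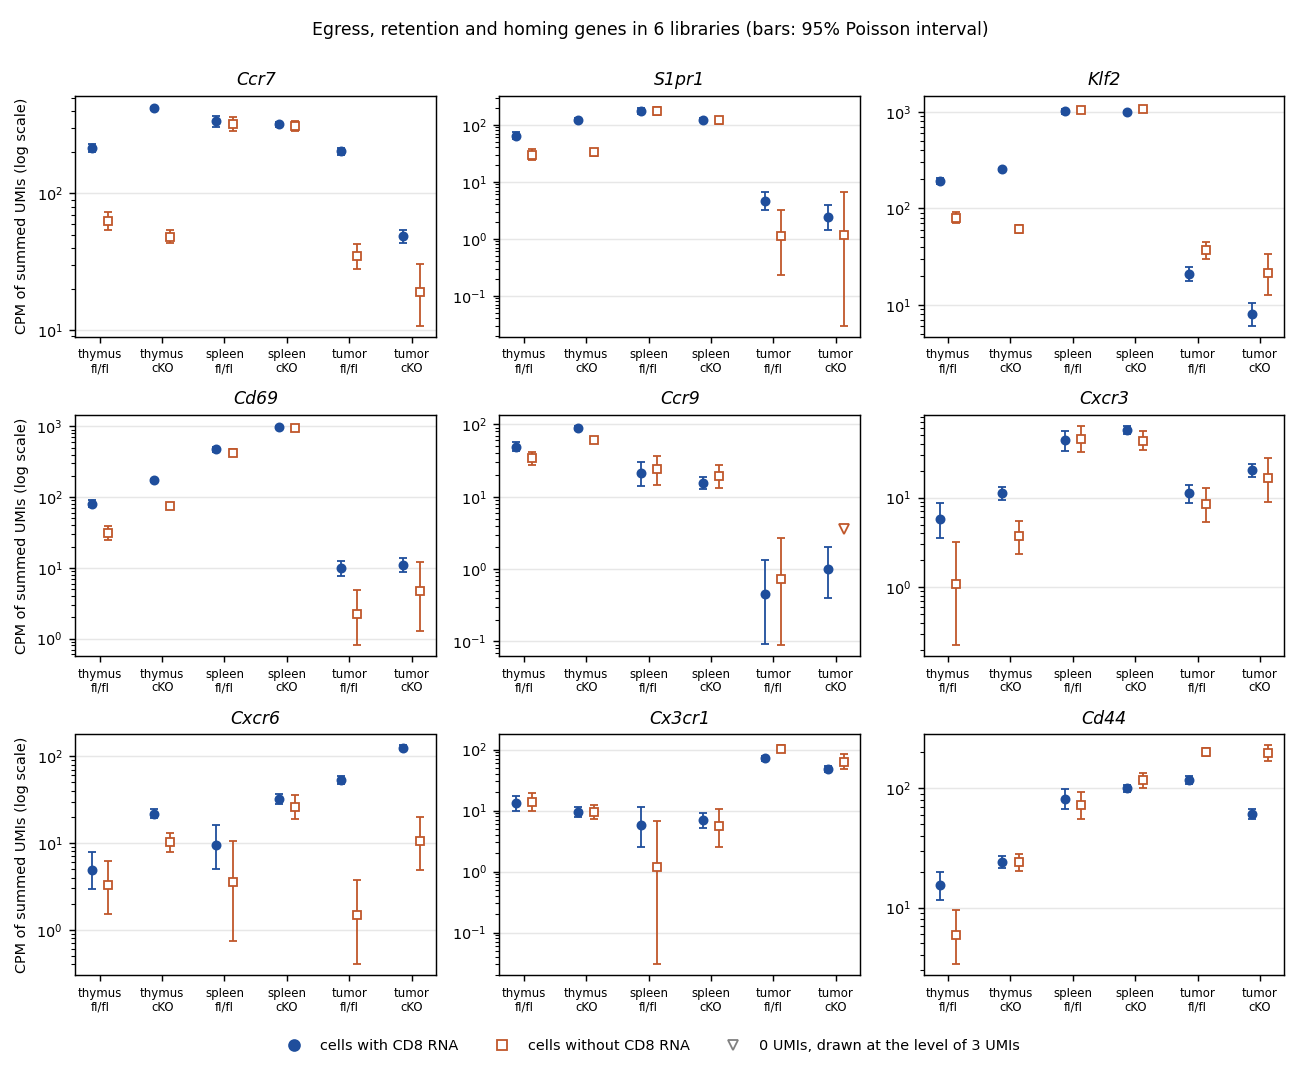
Level of each of the 9 genes in summed CPM (log axis) in the 6 libraries, in cells with CD8 RNA (filled circles) and without it (open squares), with 95% Poisson intervals as bars and a triangle at the level of 3 UMIs where none was read. S1pr1, Klf2 and Cd69 are lowest in the tumor libraries and Cxcr6 is highest there, in cells with CD8 RNA.

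Ccr7, the receptor for the chemokines of lymphoid tissue, stood at 419.6 CPM (408 to 431) in the thymic library labelled Pdcd1 cKO, the highest of the 6. The splenic libraries followed with 337 (307 to 369) and 321 CPM (308 to 334), whose intervals overlapped. The thymic library labelled Pdcd1fl/fl, at 215 CPM (199.8 to 230.1), overlapped the tumor library labelled Pdcd1fl/fl, at 203 CPM (193 to 214). The tumor library labelled Pdcd1 cKO was lowest at 48.6 CPM (43.6 to 54.0), so Ccr7 did not order the libraries by tissue.

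S1pr1, the exit receptor, was highest in the splenic library labelled Pdcd1fl/fl, at 177 CPM (156 to 201). The thymic and splenic libraries labelled Pdcd1 cKO, at 124 (118 to 129.9) and 122 CPM (115 to 131), overlapped, and the thymic library labelled Pdcd1fl/fl stood at 64.6 CPM (56.6 to 73.4). Tumor cells held 4.65 (3.16 to 6.60) and 2.40 CPM (1.40 to 3.85) of S1pr1, from 31 and 17 UMIs, with overlapping intervals. Klf2 made a wider step between tissues. Its level was 1010.3 (958 to 1065) and 995 CPM (972 to 1018) in spleen, which overlapped, then 254 CPM (246 to 263) and 194 CPM (180.0 to 209) in the thymic libraries labelled Pdcd1 cKO and Pdcd1fl/fl, and 21.1 (17.8 to 24.9) and 8.06 CPM (6.10 to 10.4) in tumors. Every other neighbouring pair of Klf2 levels was apart.

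Cd69, which holds T cells in tissue by removing S1pr1 protein from the surface, was highest in the splenic library labelled Pdcd1 cKO, at 989 CPM (967 to 1012), followed by the one labelled Pdcd1fl/fl, at 474 CPM (438 to 511). Thymic cells held 174 CPM (167 to 181) with the label Pdcd1 cKO and 81.3 CPM (72.3 to 91.0) with the label Pdcd1fl/fl. Only the tumor libraries overlapped for Cd69, at 11.0 (8.71 to 13.8) and 9.90 CPM (7.66 to 12.6), the higher one labelled Pdcd1 cKO. Ccr9, the receptor for the thymic and gut chemokine Ccl25, was the one member highest in both thymic libraries. It stood at 89.3 CPM (84.2 to 94.7) in the library labelled Pdcd1 cKO and 49.2 CPM (42.3 to 57.0) in the one labelled Pdcd1fl/fl, then at 21.0 (14.1 to 30.2) and 15.6 CPM (12.8 to 18.7) in the spleen. In the tumors Ccr9 came to 3 and 7 UMIs, or 0.450 (0.0928 to 1.31) and 0.989 CPM (0.398 to 2.04), too few to order.

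Cxcr3, the receptor for Cxcl9 and Cxcl10, was highest in the spleen, at 43.5 (33.2 to 55.9) and 56.9 CPM (51.6 to 62.7). The tumor library labelled Pdcd1 cKO followed at 20.1 CPM (16.9 to 23.7). The thymic library labelled Pdcd1 cKO, at 11.2 CPM (9.45 to 13.2), overlapped the tumor library labelled Pdcd1fl/fl, at 11.1 CPM (8.71 to 13.9), and that one just reached the thymic library labelled Pdcd1fl/fl, at 5.75 CPM (3.56 to 8.78). Cxcr6, the receptor for Cxcl16 on resident T cells, was a tumor gene in both labels. It stood at 125 CPM (116 to 133) in the tumor library labelled Pdcd1 cKO and 52.8 CPM (47.4 to 58.6) in the one labelled Pdcd1fl/fl. The other libraries labelled Pdcd1 cKO held 32.5 CPM (28.5 to 36.9) in spleen and 21.7 CPM (19.2 to 24.4) in thymus, and those labelled Pdcd1fl/fl overlapped at 9.41 (5.01 to 16.1) and 4.92 CPM (2.92 to 7.78).

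Cx3cr1, the receptor for fractalkine, was highest in the tumors, at 71.7 (65.4 to 78.4) and 47.6 CPM (42.7 to 53.0), which were apart. The other 4 libraries formed a chain of overlapping neighbours, from 13.1 CPM (9.68 to 17.4) and 9.40 CPM (7.78 to 11.2) in thymus to 5.79 (2.50 to 11.4) and 6.96 CPM (5.18 to 9.16) in spleen. Cd44, the hyaluronan receptor of activated and memory T cells, was highest in the tumor library labelled Pdcd1fl/fl, at 117 CPM (109 to 126). The splenic libraries overlapped at 81.8 (67.4 to 98.4) and 99.9 CPM (92.8 to 107), the tumor library labelled Pdcd1 cKO stood below them at 61.3 CPM (55.7 to 67.4), and the thymic libraries held 15.3 (11.6 to 19.9) and 24.0 CPM (21.4 to 26.9).

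Spleen was set against thymus within each label, to ask what differs between CD8 T cells before and after they have left the thymus. Klf2, Cd69, Cxcr3 and Cd44 were at least 2-fold higher in the spleen with both labels, and Ccr9 at least 2-fold lower with both. Between the libraries labelled Pdcd1fl/fl, 5 of 9 members were at least 2-fold higher, against 8.58% of 10353 genes, and 2 were at least 2-fold lower, against 28.2%. Between those labelled Pdcd1 cKO, 4 were higher, against 11.6% of 13930 genes, and 1 was lower, against 13.4%. The median log2 ratio of all genes was −0.40 and −0.00, that of the 9 members 1.46 and 0.58.

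Klf2 was 5.21-fold higher in spleen than thymus with the label Pdcd1fl/fl, a log2 ratio of 2.38 (2.25 to 2.51), and 3.91-fold with the label Pdcd1 cKO, 1.97 (1.91 to 2.03). Cd69 had log2 ratios of 2.54 (2.34 to 2.75) and 2.51 (2.44 to 2.58), the closest pair of the 9 genes. For Cxcr3 the ratios were 2.92 (2.18 to 3.71) and 2.34 (2.07 to 2.63). Effector and memory T cells carry Cd44, and it gave 2.42 (1.94 to 2.91) and 2.06 (1.86 to 2.26). S1pr1 rose with the label Pdcd1fl/fl only, by a log2 ratio of 1.46 (1.19 to 1.72) against −0.01 (−0.13 to 0.11). Ccr7 changed direction between the labels, at 0.65 (0.48 to 0.82) and −0.39 (−0.46 to −0.32). Ccr9 had log2 ratios of −1.23 (−1.85 to −0.66) and −2.52 (−2.81 to −2.24). Cxcr6 was higher with the label Pdcd1 cKO, at 0.58 (0.32 to 0.84), and its interval spanned 0 with the label Pdcd1fl/fl, at 0.93 (−0.22 to 2.05). Cx3cr1, with 8 splenic UMIs labelled Pdcd1fl/fl, gave −1.18 (−2.47 to −0.09) and −0.43 (−0.94 to 0.05). With the label Pdcd1 cKO, 1 splenic cell held 9 of the 51 UMIs of Cx3cr1. In cells with fewer than 3 UMIs of other lineages, that ratio was −0.72 (−1.26 to −0.20). A stricter cell filter left 67 splenic cells with the label Pdcd1fl/fl and 0 UMIs of Cx3cr1 in them, which gives no direction.

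The thymus holds immature thymocytes that the spleen lacks, so the comparison was made again with cells that have CD8 RNA and no UMI of the 4 immature genes, a set chosen after seeing the data. Klf2 kept its direction, with log2 ratios of 1.13 and 1.28, as did Cd69 at 1.40 and 1.88. S1pr1 went to 0.25 (−0.07 to 0.57) and −0.74 (−0.87 to −0.61), so that the spleen was not clearly higher with the label Pdcd1fl/fl and was lower with the label Pdcd1 cKO. Ccr7 was lower in spleen with both labels in this set, at −0.54 (−0.73 to −0.34) and −1.16 (−1.24 to −1.09). Ccr9 stayed lower, at −1.99 and −3.00, and Cxcr3 and Cd44 stayed higher, at 1.19 and 1.78 for Cxcr3 and 1.11 and 1.53 for Cd44. Cxcr6 did not differ clearly with either label, at −0.47 (−1.75 to 0.83) and 0.08 (−0.22 to 0.39), and Cx3cr1 gave −1.71 (−3.15 to −0.41), from 8 splenic and 16 thymic UMIs, and −0.24 (−0.87 to 0.40). The 16 thymic UMIs of Cx3cr1 lay in 7 cells, with up to 6 in a cell, so few cells carry that ratio.

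Tumor was set against spleen within each label, to ask what differs between CD8 T cells in a peripheral organ and in the tumor. S1pr1, Klf2, Cd69 and Ccr9 fell far below the splenic level with both labels, while Cxcr6 and Cx3cr1 rose. With the label Pdcd1fl/fl, 2 of 9 members were at least 2-fold higher in the tumor, against 28% of 11932 genes, and 5 were at least 2-fold lower, against 27.2%. With the label Pdcd1 cKO, 2 were higher, against 21.1% of 13673 genes, and 6 were lower, against 35.3%. The all-gene median log2 ratio was 0.03 and −0.36, and the median of the members −1.97 and −2.72.

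Klf2 had log2 ratios of −5.58 (−5.84 to −5.33) and −6.95 (−7.35 to −6.57). S1pr1, its target, had −5.25 (−5.84 to −4.71) and −5.67 (−6.46 to −4.98). For Cd69 the ratios were −5.58 (−5.97 to −5.21) and −6.49 (−6.83 to −6.17), so the RNA of the retention marker was not higher in the tumor. Ccr9 gave −5.54 (−7.90 to −3.85) from 3 tumor UMIs and −3.98 (−5.32 to −2.89) from 7. Ccr7 fell by a log2 ratio of −0.73 (−0.88 to −0.57) with the label Pdcd1fl/fl and −2.72 (−2.89 to −2.56) with the label Pdcd1 cKO. Cxcr3 gave −1.97 (−2.48 to −1.45) and −1.50 (−1.79 to −1.23). Cxcr6 was 5.61-fold and 3.83-fold higher in the tumor, with log2 ratios of 2.49 (1.69 to 3.41) and 1.94 (1.73 to 2.15). Cx3cr1 was 12.4-fold and 6.84-fold higher, with 3.63 (2.64 to 4.85) and 2.77 (2.35 to 3.23). Cd44 changed direction between labels, at 0.52 (0.23 to 0.82) and −0.70 (−0.88 to −0.53).

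In tumor cells with CD8 RNA and fewer than 3 UMIs of other lineages, 106 and 258 cells, the tumor ratios of the egress genes held. S1pr1 gave −4.08 and −4.90, Klf2 −5.04 and −7.55, and Cd69 −4.42 and −6.16 against the spleen. Cxcr6 rose further above the spleen, at 3.49 and 2.54, and Cx3cr1 stayed above it at 3.07 and 1.85. Cd44 was lower than in the spleen with both labels in these cells, at −1.15 (−1.72 to −0.60) and −1.93. All genes had medians of −0.85 and −0.89 in this set, and 46.6% and 47.6% of them were at least 2-fold lower. Ccr7 with the label Pdcd1fl/fl lay at the splenic level, at 0.07 (−0.13 to 0.27), and below it with the label Pdcd1 cKO, at −2.80. Cxcr3 stayed below the spleen, at −1.34 and −1.18, and Ccr9 had 0 and 1 UMIs in these tumor cells.

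The comparison of genotypes in the thymus asks whether the exit genes of CD8 thymocytes differ between the labels. In cells with CD8 RNA, 8 of the 9 genes were higher with the label Pdcd1 cKO, with intervals clear of 0 and log2 ratios between 0.39 and 2.14, against 12% of all genes. None had an interval below 0, against 30.1%. Cxcr6 was farthest apart. Klf2 had the smallest of the 8 ratios, and Cx3cr1 was not clearly different. Of the 9 members 2, Cd69 and Cxcr6, were at least 2-fold higher, against 6.46% of 13137 genes, and 0 were at least 2-fold lower, against 6.56%. With median-of-ratios scaling 6 members reached 2-fold. All genes had a median log2 ratio of −0.15 and the members 0.94. Pdcd1 RNA was itself higher in the library labelled Pdcd1 cKO, so the direction is that of the label only.

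Ccr7 was 1.96-fold higher with the label Pdcd1 cKO, a log2 ratio of 0.97 (0.86 to 1.08). S1pr1 was 1.91-fold higher, 0.94 (0.74 to 1.14), close to Ccr7. Klf2, upstream of S1pr1, was 1.31-fold higher, 0.39 (0.27 to 0.51). Cd69, which opposes S1pr1 and marks thymocytes after selection, was 2.14-fold higher, 1.10 (0.92 to 1.28). Ccr9 was 1.81-fold higher, 0.86 (0.63 to 1.09). Cxcr3, from 21 and 142 UMIs, was 1.95-fold higher, 0.96 (0.30 to 1.70). Cxcr6, a gene of resident and innate-like T cells, was 4.41-fold higher, 2.14 (1.45 to 2.92), from 18 and 275 UMIs. Cx3cr1 gave −0.48 (−0.98 to 0.03), and Cd44 was 1.57-fold higher, 0.65 (0.23 to 1.09).

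Thymic cells were then sorted on RNA, to read the genes in sets that differ in maturation. A single UMI places a cell, so depth bears on the sorting and a set can still mix cells of different maturation. Ccr7, for 1, was read in 40.7% and 49.8% of cells with CD8 RNA and an immature gene. Immature genes were read in 378 of 589 cells with CD8 RNA, 64.2%, with the label Pdcd1fl/fl and in 853 of 1753, 48.7%, with the label Pdcd1 cKO, so the latter library held a larger share of cells without them. The strata were cells without CD8 RNA and with an immature gene (403 and 690 cells), without CD8 RNA and without immature genes (75 and 192), with CD8 RNA and an immature gene (378 and 853), and with CD8 RNA and no immature gene, with Cd24a RNA (62 and 264) or without it (149 and 636). Cd24a falls as thymocytes mature, and the plot of thymic strata sets the genes along this order.

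**Figure D2:**
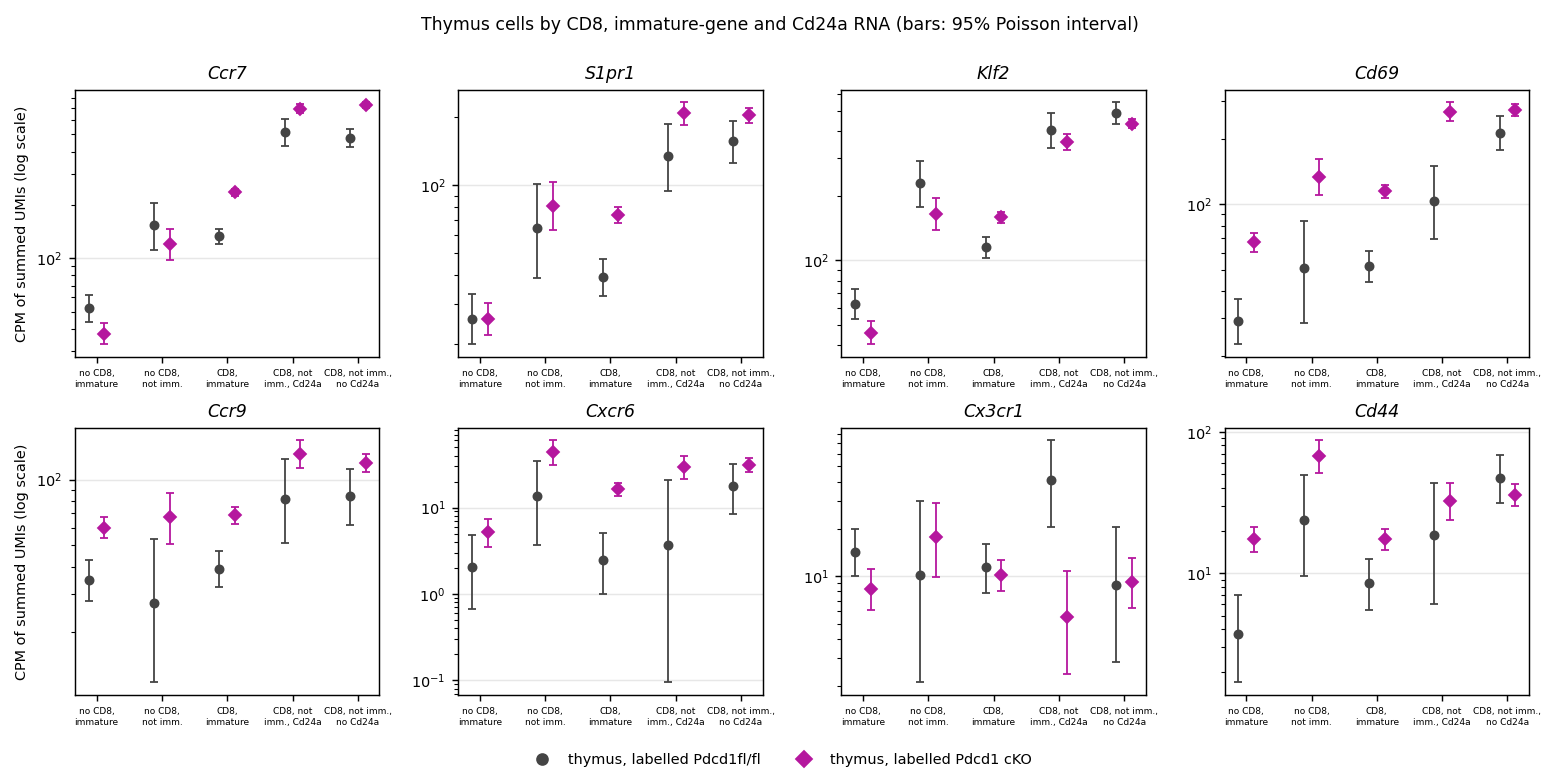
Level in summed CPM (log axis) of 8 of the genes (all but Cxcr3) in 5 sets of thymic cells ordered by CD8, immature-gene and Cd24a RNA, in the libraries labelled Pdcd1fl/fl and Pdcd1 cKO, with 95% Poisson intervals as bars. Ccr7, S1pr1 and Klf2 are lowest in cells with immature-gene RNA and without CD8 RNA and highest in cells with CD8 RNA and no immature-gene RNA, in both libraries.

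Ccr7 was higher in cells with CD8 RNA and no immature gene than in any other thymic set, in both libraries. Cells with immature genes and no CD8 RNA held 52.4 and 37.5 CPM of Ccr7, cells with neither 153 and 120 CPM, cells with CD8 RNA and immature genes 133 and 235 CPM, and cells with CD8 RNA and no immature gene 489 and 720.2 CPM. From the first to the last of these Ccr7 rose 9.33-fold and 19.2-fold, by log2 ratios of 3.22 (2.93 to 3.52) and 4.26 (4.06 to 4.47). S1pr1, which thymocytes need to leave, followed with 25.8 and 25.7 CPM, 39.4 and 73.9 CPM, and 149 and 205 CPM, a rise of 2.53 (2.08 to 2.99) and 2.99 (2.74 to 3.25). Klf2 went from 62.7 and 45.8 CPM through 115 and 158 to 460.4 and 411, by 2.88 (2.60 to 3.16) and 3.17 (2.98 to 3.36). In cells with neither CD8 RNA nor immature genes, S1pr1 stood at 64.8 and 81.3 CPM and Klf2 at 228 and 165 CPM. With the label Pdcd1fl/fl these 3 genes rose more where the immature genes were lost than where CD8 RNA was first read. The earlier step was the larger one for Ccr7 and Klf2 with the label Pdcd1 cKO, and both steps were alike for S1pr1. Cells with CD8 RNA and no immature gene were shallower than those with one, at medians of 3474 and 4901.5 against 5896.5 and 6293 UMIs.

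Cd69 rose from 29.1 and 67.1 CPM through 52.2 and 115 to 179 and 270.0, log2 ratios of 2.62 and 2.01. Within the last set, Cd69 stood at 104 CPM with Cd24a RNA and 214 CPM without it in the library labelled Pdcd1fl/fl, and at 267 and 271 CPM in the one labelled Pdcd1 cKO. Ccr9, already on in immature cells, rose less, from 34.8 and 60.4 CPM to 83.5 and 123, by 1.26 and 1.03. Cxcr6 rose from 2.05 and 5.15 CPM to 13.1 and 30.8, by 2.68 and 2.58, and in the library labelled Pdcd1 cKO its highest level, 43.6 CPM, was in cells with neither CD8 RNA nor immature genes. The rise of Cxcr6 with the label Pdcd1fl/fl, from 5 and 11 UMIs, was not there after thinning, at −0.0665 from 2 and 1 UMIs. Cxcr3 had 1 UMI in immature cells labelled Pdcd1fl/fl, or 0.409 CPM, and 2.49 CPM in those labelled Pdcd1 cKO, against 19.1 and 16.6 CPM in cells with CD8 RNA and no immature gene. Cd44 rose from 3.69 to 38.2 CPM with the label Pdcd1fl/fl, 3.37 (2.27 to 4.62), and from 17.4 to 34.7 CPM with the label Pdcd1 cKO, 1.00 (0.63 to 1.37). Cx3cr1 did not follow maturation, at 0.41 (−0.54 to 1.30) and −0.04 (−0.69 to 0.60).

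Genotype ratios were smaller for most members in cells with CD8 RNA and no immature gene, though the labels that Pdcd1 RNA goes against still set their direction. In cells with CD8 RNA and no immature gene, 211 and 900 cells chosen after seeing the data, Ccr7 was apart by a log2 ratio of 0.56 (0.41 to 0.71), where all cells with CD8 RNA gave 0.97. S1pr1 gave 0.46 (0.19 to 0.74) in place of 0.94. Klf2 turned to −0.16 (−0.32 to −0.00), with 460.4 and 411 CPM, and 1 cell held 25 of its 386 UMIs with the label Pdcd1fl/fl. Cd69 gave 0.59 (0.35 to 0.85) and Ccr9 0.56 (0.20 to 0.94). Cxcr6, the member farthest apart, stayed higher with the label Pdcd1 cKO at 1.23 (0.35 to 2.26). Cxcr3 and Cd44 no longer differed, at −0.20 (−0.99 to 0.68) and −0.14 (−0.69 to 0.46), and Cx3cr1 was lower at −1.24 (−2.11 to −0.30), from 16 and 39 UMIs. Few cells carry this Cx3cr1 ratio: 11 of the 16 UMIs lay in 3 cells with Cd24a RNA. Cx3cr1 gave −2.89 (−4.41 to −1.45) in the cells with Cd24a RNA and 0.07 (−1.30 to 1.79) in those without it. Across all genes the median of the cells with CD8 RNA and no immature gene was −0.27.

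The ratios were larger in cells with CD8 RNA that still had immature genes. There Ccr7 gave 0.83, S1pr1 0.91, Klf2 0.47, Cd69 1.14 and Ccr9 0.81. Cxcr6 gave 2.70 (1.62 to 4.05) and Cxcr3 2.15 in the same cells. Cd44 gave 1.03 (0.40 to 1.72) in them. Before CD8 RNA, in cells with immature genes, Ccr7 and Klf2 were lower in the library labelled Pdcd1 cKO, at −0.48 (−0.81 to −0.16) and −0.45 (−0.75 to −0.15), and S1pr1 did not differ, at −0.00. Cd69, by contrast, was higher there too, at 1.21, as was Ccr9 at 0.79 (0.45 to 1.15). Cd44 had the largest clear ratio in those cells, 2.24 (1.26 to 3.41) from 9 and 98 UMIs, and Cx3cr1 gave −0.78 (−1.44 to −0.11). The Cre deletes Pdcd1 after positive selection, and the RNA of these cells would place them before it. Some ratios between the labels were thus present in cells sorted as earlier than the deletion, and the reason was not tested.

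In the spleen the comparison of genotypes asks the same of CD8 T cells that have left the thymus. Cd69 and Cxcr6 were higher with the label Pdcd1 cKO, as in the thymus, S1pr1 was lower, and Ccr7 and Klf2 did not differ beyond counting error. At least 2-fold higher were 2 of 9 members, against 10.8% of 11507 genes, and at least 2-fold lower 0, against 2.89%. Intervals lay above 0 for 3 members, against 18.7% of genes, and below 0 for 1, against 7.2%. The median log2 ratio was 0.18 over all genes and 0.27 over the members. Pdcd1 RNA, 1 and 89 UMIs, goes against these labels.

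Cd69 was 2.09-fold higher with the label Pdcd1 cKO, a log2 ratio of 1.06 (0.95 to 1.18). Cxcr6 was 3.45-fold higher, 1.79 (0.99 to 2.72), from 13 and 238 UMIs. With only cells of at least 1000 genes, 2000 UMIs and at most 10% mitochondrial UMIs, which left 67 and 805 cells with CD8 RNA, the ratio of Cxcr6 was 0.52 and that of Cd69 0.92, so neither reached 2-fold. S1pr1, whose receptor Cd69 protein removes, had a ratio of −0.53 (−0.74 to −0.33). Ccr7 gave −0.07 (−0.21 to 0.08) and Klf2 −0.02 (−0.11 to 0.06), so neither differed beyond counting error. Ccr9 gave −0.43 (−1.03 to 0.21), Cxcr3 0.39 (−0.00 to 0.81), Cx3cr1 0.27 (−0.82 to 1.55) and Cd44 0.29 (0.00 to 0.59). The library labelled Pdcd1fl/fl lost most of its barcodes to the filter, and Cd69 there rests on 863 cells with 654 UMIs.

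The tumor comparison asks whether the homing genes of tumor-infiltrating CD8 T cells differ between the labels. Ccr7, Klf2, S1pr1, Cx3cr1 and Cd44 were lower in the library labelled Pdcd1 cKO, Cxcr6 and Cxcr3 were higher, and Cd69 did not differ. With 8 of 9 members holding enough UMIs, 1 was at least 2-fold higher, against 7.24% of 13270 genes, and 2 were at least 2-fold lower, against 9.99%. Of these 8, 2 had an interval above 0, against 16.2% of genes, and 5 below 0, against 28.5%. The members' median log2 ratio was −0.76 and that of all genes −0.15. Pdcd1 RNA was alike in both libraries, so it does not tell these labels apart.

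Ccr7 dropped by a log2 ratio of −2.06 (−2.24 to −1.89) with the label Pdcd1 cKO, from 203 to 48.6 CPM. Klf2 gave −1.39 (−1.86 to −0.94) and S1pr1, from 31 and 17 UMIs, −0.95 (−1.90 to −0.05). Cd69, whose RNA was low in both, gave 0.16 (−0.34 to 0.65). Cxcr6 was 2.36-fold higher with the label Pdcd1 cKO, 1.24 (1.06 to 1.42), and Cxcr3 1.81-fold, 0.85 (0.44 to 1.28). Cx3cr1 gave −0.59 (−0.80 to −0.39) and Cd44 −0.94 (−1.11 to −0.76). Ccr9, with 3 and 7 UMIs, gave 1.14 (−0.99 to 3.72), which is too few to compare.

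Other lineages were then taken out of the tumor comparison. In the 106 and 258 cells with CD8 RNA and fewer than 3 UMIs of other lineages, Ccr7 stood at 356 (320.4 to 394) and 46.2 CPM (38.1 to 55.5), a log2 ratio of −2.95 (−3.26 to −2.64). Klf2 stood at 31.0 and 5.31 CPM, −2.55 (−3.60 to −1.58), and S1pr1 at 10.7 and 4.09 CPM, −1.38 (−2.78 to −0.01). Ccr7 and Klf2 were thus still lower with the label Pdcd1 cKO without other lineages. S1pr1, from 11 and 10 UMIs, only just cleared 0. Cxcr6 stood at 98.9 and 191 CPM, 0.95 (0.63 to 1.27), while Cxcr3, at 17.5 and 25.3 CPM, no longer cleared 0 at 0.54 (−0.24 to 1.38). Cx3cr1 stood at 49.5 and 20.8 CPM, −1.25 (−1.83 to −0.66). Cd44 dropped to 36.8 and 26.2 CPM, and its ratio of −0.49 (−1.10 to 0.12) spanned 0. Cd69 stood at 22.3 and 13.9 CPM, −0.68 (−1.49 to 0.15). Over all genes the median was 0.18 in these cells.

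**Figure D3:**
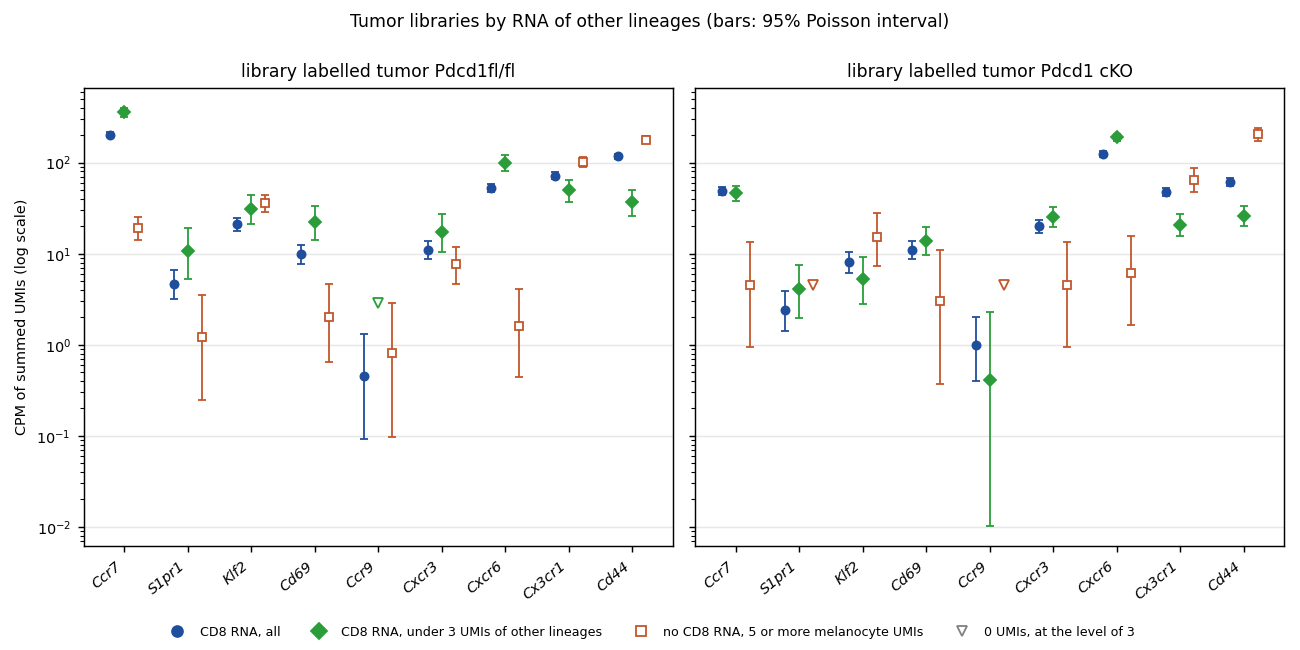
Level in summed CPM (log axis) of the 9 genes in 3 sets of tumor cells: all with CD8 RNA, those with fewer than 3 UMIs of other lineages, and cells without CD8 RNA that held at least 5 melanocyte UMIs, in the libraries labelled Pdcd1fl/fl and Pdcd1 cKO, with 95% Poisson intervals as bars and a triangle at the level of 3 UMIs where none was read. Cd44 and Cx3cr1 are higher in the cells with melanocyte RNA than in the cells with few UMIs of other lineages, and Ccr7 and Cxcr6 are lower.

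Cd44 and Cx3cr1 were both higher in cells with melanocyte RNA than in cells with few UMIs of other lineages. Cells without CD8 RNA and with at least 5 melanocyte UMIs, 86 and 25 cells, held 179 and 205 CPM of Cd44 and 101 and 65.3 CPM of Cx3cr1. Cells with CD8 RNA and at least 5 melanocyte UMIs, 136 and 70 cells, held 157 and 115 CPM of Cd44 and 82.4 and 88.9 CPM of Cx3cr1. Those cells had median depths of 26918 and 30243.5 UMIs, and whether they were doublets, or T cells with tumor RNA around them, was not tested. Ccr7 and Cxcr6 went the other way: in the same 136 and 70 cells Ccr7 stood at 96.5 and 41.0 CPM and Cxcr6 at 27.2 and 33.0 CPM. In the cells without CD8 RNA and with melanocyte UMIs, Ccr7 stood at 19.3 and 4.55 CPM, the latter from 3 UMIs. Cells without CD8 RNA that held at least 5 macrophage or monocyte UMIs, 21 and 15 cells, had more Cd44, at 502 and 352 CPM, and more Klf2, at 71.7 and 54.7 CPM. High Cd44 was thus not particular to cells with melanocyte RNA.

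Few cells carried most tumor Ccr7. In the library labelled Pdcd1fl/fl, 89 of 344 cells with CD8 RNA, 25.9%, had at least 5 Ccr7 UMIs and held 87.4% of them, up to 57 in a cell. In the one labelled Pdcd1 cKO, 24 of 512 cells, 4.69%, held 68.3%, up to 25 in a cell. Of the cells with fewer than 3 UMIs of other lineages, 30 of 106 and 8 of 258 had at least 5 Ccr7 UMIs, which is 28.3% and 3.10%. In the thymus the labels stood the other way around: 42 of 589 and 470 of 1753 cells had at least 5 Ccr7 UMIs, 7.13% and 26.8%, and held 39.7% and 73.9% of them. Cd44 with at least 5 UMIs was read in 54 and 24 tumor cells and Cx3cr1 in 28 and 17, but none of them was among the cells with few UMIs of other lineages. Splenic Cd69 reached 5 UMIs in 17 of 863 and 384 of 3885 cells, 1.97% and 9.88%. These counts are of unthinned cells, and in each tissue the deeper library had the larger share. Median UMIs of cells with CD8 RNA were 4353 and 5486 in thymus, 1374 and 1686 in spleen, and 13497 and 9580 in tumors. Depth thus bears on how far apart these shares are.

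Shares of cells were compared after thinning every cell to 1000 UMIs. The draw is random, and a second draw moved 6 of the 54 shares of cells with CD8 RNA out of their intervals, so small shares are not ordered here. Ccr7 was read in 21.2% (18.0 to 24.7) and 32.9% (30.7 to 35.1) of thymic cells with CD8 RNA, against 6.20% and 4.64% of thymic cells with immature genes and no CD8 RNA, whose median depths were 4652 and 5761 UMIs against 4353 and 5486. In the spleen Ccr7 was read in 26.0% and 24.2%, and in the tumors in 18.6% (14.6 to 23.1) and 3.52% (2.10 to 5.50). S1pr1 was read in 9.34% and 12.6% of thymic cells with CD8 RNA, against 2.48% and 3.62% of the immature cells, in 13.8% and 11.2% of splenic cells, and in 1.16% and 0.391% of tumor cells. The second draw gave 6.45% in the thymic library labelled Pdcd1fl/fl, and 0.581% and 0 in the tumors. Klf2 was read in 21.2% and 23.1%, 57.0% and 58.9%, and 3.49% and 0.586% of cells in the 3 tissues, against 6.45% and 6.09% of the immature cells. Tumor Klf2 with the label Pdcd1fl/fl, 3.49% (1.82 to 6.01), came to 1.45% in the second draw. For Cd69 these shares were 10.9% and 17.5%, 30.8% and 55.4%, and 1.74% and 1.95%, against 4.22% and 6.81%, and the second draw gave 1.45% and 0.977% in the tumors. Retention and exit genes were thus both read in few tumor cells at this depth.

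Among the homing receptors, Ccr9 was read in 5.60% and 10.4% of thymic cells, against 3.47% and 8.26% of the immature cells, and in 1.74% and 1.34% of splenic cells. In the tumors Ccr9 was read in 0 of 344 cells labelled Pdcd1fl/fl and in 0.195% with the label Pdcd1 cKO. The interval of the former reaches 1.07% of cells with a UMI at this depth. Cxcr3 was read in 1.19% and 1.43%, 3.82% and 5.92%, and 0.872% and 2.73%, against 0 of 403 immature cells, with an interval up to 0.911%, and 0.290%. Its tumor share with the label Pdcd1 cKO was 1.37% in the second draw. Cxcr6 was read in 0.509% and 2.51% of thymic cells, against 0.496% and 0.725% of the immature cells. With the label Pdcd1fl/fl these shares rest on 3 and 2 cells and are not ordered. Without thinning they were 2.89% and 0.993%. In the spleen Cxcr6 reached 0.927% and 2.81%, and in the tumors 6.98% and 14.6%. Cx3cr1 was read in 1.36% and 0.913% of thymic cells, against 1.49% and 1.16% of the immature cells, and with the label Pdcd1 cKO the second draw turned the order, at 1.20% and 1.01%. In spleen Cx3cr1 was read in 0.463% and 0.592%. In the tumors Cx3cr1 was read in 6.40% and 3.32%. Tumor cells with melanocyte RNA and without CD3 or CD8 RNA, 19 and 1, were too few to give a background there. Cd44 was read in 2.89% and 2.45%, 8.23% and 8.83%, and 5.81% and 4.30%. The second draw gave 1.70% and 3.37%, 7.07% and 8.65%, and 9.30% and 4.88%, so neither the thymic labels nor spleen and tumor with the label Pdcd1fl/fl can be ordered for Cd44. The immature cells held Cd44 in 0.496% and 2.17%.

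Cells with CD8 RNA were set against cells without it in the same library, to ask which members follow CD8 itself. Members with at least 20 UMIs were counted as higher or lower where the interval was clear of 0, beside all genes under the same rule. In the thymus 7 of 9 members were higher with CD8 RNA with each label, against 13.1% and 10.2% of genes, and 0 lower, against 11.1% and 33.9%. In the spleen 0 of 7 and 1 of 9 were higher, against 4.7% and 4.61%, and 0 and 1 lower, against 4.74% and 5.43%. In the tumors 4 of 8 and 2 of 7 were higher, against 9.87% and 9.24%, and 3 and 2 lower, against 36.7% and 29.5%. Over the 6 libraries, Ccr7 was higher with CD8 RNA in 4 and lower in 0, with intervals clear of 0, and S1pr1, Cd69, Cxcr3 and Cxcr6 were higher in 3 and lower in 0. Ccr9 was higher in 2 and lower in 0, Klf2 higher in 2 and lower in 3, Cd44 higher in 1 and lower in 2, and Cx3cr1 higher in 0 and lower in 1. Of 7159 genes with at least 20 UMIs in every library, 3.07% were higher in at least 4 and lower in 0, as was 1 of the 5 such members, and 5.69% higher in at least 3 and lower in 0, as were 3 of the 5. These ratios compare cells within a library and do not rest on its label.

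Thymic Ccr7 stood at 215 CPM with and 63.3 without CD8 RNA in the library labelled Pdcd1fl/fl, a log2 ratio of 1.76 (1.52 to 2.01), and at 419.6 and 48.3 CPM in the one labelled Pdcd1 cKO, 3.12 (2.95 to 3.29). S1pr1 stood at 64.6 and 30.0 CPM, 1.11 (0.74 to 1.49), and at 124 and 33.0 CPM, 1.90 (1.70 to 2.12). Klf2 stood at 194 and 80.4 CPM, 1.27 (1.05 to 1.49), and at 254 and 61.4 CPM, 2.05 (1.90 to 2.20). Cd69, which rises when thymocytes are selected, stood at 81.3 and 31.4 CPM, 1.37 (1.02 to 1.73), and at 174 and 75.9 CPM, 1.19 (1.05 to 1.34). Ccr9 stood at 49.2 and 34.0 CPM, 0.53 (0.17 to 0.91), and at 89.3 and 61.3 CPM, 0.54 (0.38 to 0.71), the smallest clear difference. Cxcr3 gave 2.39 (0.65 to 4.78) and 1.60 (0.97 to 2.29). Cxcr6 gave 0.58 (−0.65 to 1.92) and, with its interval above 0, 1.09, and Cd44 1.39 (0.57 to 2.29) and 0.01 (−0.28 to 0.29). Cx3cr1 did not follow CD8 RNA, at −0.08 and −0.03.

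In the spleen, where CD3 RNA was read in 527 of 615 and 954 of 1043 cells without CD8 RNA, no member's interval cleared 0 in the library labelled Pdcd1fl/fl. With the label Pdcd1 cKO, Klf2 stood at 995 CPM with and 1066 without CD8 RNA, −0.10 (−0.18 to −0.02), and Cxcr3 at 56.9 and 43.1 CPM, 0.40 (0.03 to 0.79). Ccr7 stood at 337 and 324 CPM with the label Pdcd1fl/fl and 321 and 313 with the label Pdcd1 cKO. Cd69 stood at 474 and 428 CPM and at 989 and 945.

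In the tumors 108 of 112 and 40 of 49 cells without CD8 RNA held at least 3 UMIs of other lineages, as did 238 of 344 and 254 of 512 with it. CD3 RNA was read in 80 and 46 of the cells without CD8 RNA and in 333 and 509 of those with it. Melanocyte markers summed to 12829 and 11972 CPM without CD8 RNA, against 6930 and 3949 with it, and T cell markers to 336 and 647 CPM, against 3057 and 4505. Cxcr6 was the member farthest apart in this split. It stood at 52.8 CPM with and 1.47 without, the latter from 4 UMIs, in the library labelled Pdcd1fl/fl, 35.8-fold, a log2 ratio of 5.16 (3.79 to 7.05). With the label Pdcd1 cKO, Cxcr6 stood at 125 and 10.6 CPM, the latter from 9 UMIs, 11.7-fold, 3.55 (2.62 to 4.69). Ccr7 stood at 203 and 34.6 CPM, 2.55 (2.25 to 2.87), and at 48.6 and 18.9 CPM, 1.37 (0.65 to 2.19). S1pr1 stood at 4.65 and 1.11 CPM, 2.07 (0.39 to 4.43), with the label Pdcd1fl/fl, and its interval spanned 0 with the other. Cd69 gave 2.16 (0.96 to 3.66) and 1.23 (−0.19 to 3.14). With cells thinned to 1000 UMIs, 0 UMIs of S1pr1 and Cd69 were left without CD8 RNA in either library, which gives no direction. Without cells of other lineages, 4 and 9 cells had no CD8 RNA. The 4 cells held 0 UMIs of S1pr1 and Cd69, and with the label Pdcd1 cKO Ccr7 gave −1.01 and Cd69 −0.94, from 7 and 2 UMIs in the 9 cells. Klf2, in contrast, was lower with CD8 RNA, at 21.1 and 36.9 CPM, −0.80 (−1.18 to −0.42), and at 8.06 and 21.2 CPM, −1.40 (−2.18 to −0.54). Cd44 was lower too, at 117 and 202 CPM, −0.78 (−0.94 to −0.62), and at 61.3 and 197 CPM, −1.68 (−1.94 to −1.42). Cx3cr1 stood at 71.7 and 104 CPM, −0.54 (−0.75 to −0.32), and at 47.6 and 63.6 CPM, −0.42 (−0.84 to 0.02).

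Cells with CD8 RNA were also split by a UMI of Ccr7, to see which members share cells with it. In the thymus the exit genes shared cells with Ccr7, and in the tumor library labelled Pdcd1 cKO Cxcr6 was lower in cells with Ccr7. Deeper cells more often show a UMI, which bears on every such split. With the label Pdcd1fl/fl, S1pr1 stood at 107 CPM in 296 thymic cells with Ccr7 and 24.9 CPM in 293 without, a log2 ratio of 2.10 (1.63 to 2.60). With the label Pdcd1 cKO, S1pr1 stood at 188 CPM in 1092 cells and 36.4 CPM in 661, 2.37 (2.15 to 2.59). Klf2 stood at 279 and 114 CPM and at 379.6 and 85.0 CPM in the same splits, so it too went with Ccr7. Cd69 stood at 113 and 51.4 CPM and at 235 and 90.4 CPM, and Ccr9 at 62.8 and 36.6 CPM and at 119.7 and 48.2 CPM. Cxcr6 was the exception with the label Pdcd1 cKO, at 15.2 CPM with and 30.5 CPM without Ccr7, with an interval from −1.36 to −0.64.

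The same split left S1pr1 apart in mature thymocytes. In cells with CD8 RNA and no immature gene, a set chosen after seeing the data, S1pr1 stood at 187 CPM with and 65.0 CPM without Ccr7 with the label Pdcd1fl/fl, 1.53 (0.78 to 2.36), and at 236 and 89.2 CPM with the label Pdcd1 cKO, 1.40 (1.09 to 1.73). Cxcr6 in the latter stood at 14.8 and 90.1 CPM, −2.61 (−3.12 to −2.11), Cxcr3 at 11.6 and 35.3 CPM and Cd44 at 24.8 and 71.5 CPM. Levels of these 3 receptors were thus higher in the cells of that library without Ccr7, though the cells with Ccr7 held them too. Pdcd1 stood at 5.01 and 46.0 CPM in the same 667 and 233 cells.

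In the spleen Ccr7 marked less. With the label Pdcd1fl/fl no member differed clearly between 303 cells with Ccr7 and 560 without. With the label Pdcd1 cKO, S1pr1 stood at 143 and 108 CPM, 0.41 (0.22 to 0.60), and Cxcr3 at 44.4 and 65.8 CPM, −0.57 (−0.88 to −0.27). In the tumor library labelled Pdcd1 cKO, Cxcr6 stood at 45.0 CPM in 85 cells with Ccr7 and 147 CPM in 427 without, −1.71 (−2.08 to −1.35). With the label Pdcd1fl/fl, Cxcr6 did not differ, at 49.3 and 56.1 CPM, in 189 and 155 cells. In cells with fewer than 3 UMIs of other lineages, a split added after seeing the data, Cxcr6 was lower with Ccr7 in both libraries, at 67.3 and 157 CPM and at 98.5 and 209.9 CPM, log2 ratios of −1.22 and −1.09.

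A split by Cd69 asked whether its RNA and that of S1pr1 exclude each other. They did not: in the thymus S1pr1 stood at 93.0 CPM in 169 cells with Cd69 and 52.7 CPM in 420 without, 0.82 (0.43 to 1.20), and with the label Pdcd1 cKO at 146 and 101 CPM, 0.54. In the spleen labelled Pdcd1 cKO, S1pr1 stood at 119 CPM with and 132 CPM without Cd69, −0.15 (−0.37 to 0.06). Among thymic cells with CD8 RNA and no immature gene, S1pr1 stood at 157 and 144 CPM, 0.13 (−0.42 to 0.66), and at 202 and 209 CPM, −0.05, so neither RNA avoided the other. The action of Cd69 on S1pr1 is on the protein, which was not measured here.

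Ccl5, a chemokine of effector and memory T cells, gave a further split. Thymic Cxcr3 stood at 12.7 CPM in 228 cells with Ccl5 and 1.34 CPM in 361 without, 3.24 (1.47 to 5.65), and at 17.7 and 2.10 CPM with the label Pdcd1 cKO, 3.07 (2.19 to 4.11). Cxcr6 stood at 9.87 and 1.79 CPM and at 32.0 and 7.24 CPM, and Cd44 at 28.2 and 7.15 CPM and at 32.9 and 11.4 CPM. These 3 receptors thus shared thymic cells with Ccl5. Ccr7 went the other way in the periphery: splenic Ccr7 stood at 324 and 435 CPM and at 316 and 623 CPM with and without Ccl5, and tumor Ccr7 at 192 and 306 CPM and at 45.2 and 266 CPM.

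A wider list of 49 further genes of egress and homing was read in the same cells with CD8 RNA, in 6 classes. In the thymus 8 of 35 with enough UMIs were at least 2-fold higher in the library labelled Pdcd1 cKO and 0 lower, against 6.46% and 6.56% of all genes, with a median log2 ratio of 0.29, against 0.94 for the members. The 8 were 1 of the S1P axis, 2 receptors, 3 transcription factors, 1 of maturation and 1 ligand. In the spleen 9 of 36 were higher and 0 lower, against 10.8% and 2.89%, with a median of 0.39. The 9 were 3 of the S1P axis, 2 receptors, 2 transcription factors, 1 of maturation and 1 ligand. In the tumors 3 of 39 were higher and 4 lower, near the 7.24% and 9.99% of all genes, with a median of 0.36. Receptors gave 2 of the 3 and 1 of the 4, ligands 1 and 1, and adhesion and transcription factors 1 lower each. No adhesion gene reached 2-fold between thymic or splenic libraries. In tumor cells with fewer than 3 UMIs of other lineages, 1 of 27 was higher and 3 lower, against 11.7% and 4.41% of all genes.

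Prdm1, a transcription factor of effector and resident T cells, was among the farthest apart in thymus and spleen, at 1.92 and 7.66 CPM, 2.00 (0.90 to 3.35), and at 5.07 and 20.9 CPM, 2.04 (0.97 to 3.38). Cxcl10, a ligand of the Cxcr3 receptor, stood at 3.28 and 24.3 CPM in thymus, 2.89 (2.06 to 3.86), and at 6.52 and 28.1 CPM in spleen, 2.11 (1.16 to 3.26). Rgs1, which damps the signal of S1P and chemokine receptors, stood at 54.2 and 188 CPM in the thymus, 1.79 (1.58 to 2.01). H2-Q7, a marker of mature thymocytes, stood at 156 and 445 CPM there, 1.51 (1.39 to 1.64). In the spleen Ccr10 stood at 1.45 and 6.69 CPM, 2.21 (0.28 to 5.29), and Cd24a at 1.45 and 3.96 CPM, 1.45 (−0.53 to 4.56), both from 2 UMIs with the label Pdcd1fl/fl.

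In the tumors Cxcl16, the ligand of the Cxcr6 receptor, stood at 1.65 and 7.77 CPM, 2.24 (1.29 to 3.32), and Ccr2 at 2.25 and 7.21 CPM, 1.68 (0.83 to 2.62). Klf3, a relative of Klf2, stood at 11.4 and 3.82 CPM, −1.58 (−2.27 to −0.93). Itgb1 stood at 69.3 and 32.5 CPM, −1.09 (−1.33 to −0.86), Ccl25, the ligand of the Ccr9 receptor, at 4.65 and 2.26 CPM, −1.04 (−2.01 to −0.13), and Cxcr4 at 11.5 and 5.65 CPM, −1.03 (−1.62 to −0.46). Macrophage and monocyte markers summed to 64.0 and 428 CPM in the same cells. With fewer than 3 UMIs of other lineages, Ccr2 gave 0.43 (−1.08 to 2.24), Itgb1 −1.15 (−1.69 to −0.60) and Cxcr4 −1.45 (−2.39 to −0.52). Cxcl16 and Klf3 had 3 UMIs in each library there and Ccl25 1 and 2, too few to compare.

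Between spleen and thymus, 14 of 33 listed genes were at least 2-fold higher in the spleen and 3 lower with the label Pdcd1fl/fl, against 8.58% and 28.2% of all genes, and 14 of 37 higher and 2 lower with the label Pdcd1 cKO, against 11.6% and 13.4%. The medians were 0.80 and 0.75. By class, with the label Pdcd1fl/fl first, these were 2 and 3 of the S1P axis higher and 1 and 0 lower, 4 and 5 receptors higher, 2 and 2 adhesion genes higher and 1 and 1 lower, 3 and 2 transcription factors higher, and 3 and 2 maturation genes higher and 1 and 1 lower. Cd24a, the marker of immature thymocytes, differed most, at 237 and 1.45 CPM in thymus and spleen, −7.36 (−10.41 to −5.50) from 2 splenic UMIs, and at 194 and 3.96 CPM with the label Pdcd1 cKO, −5.61. Itgae, which binds epithelium, was lower in the spleen with both labels, at −1.05 and −1.53, and S1pr2 at −1.77 (−4.92 to 0.30) with the label Pdcd1fl/fl. Tbx21 and Ccr2 rose with both labels, Tbx21 by 3.05 and 2.63 and Ccr2 by 2.84 and 3.04. Cd55, a late marker of thymic maturation, rose by 2.40 and 1.86. Gpr183 rose by 2.24 and Il7r by 1.87 with the label Pdcd1fl/fl, and Ccr10 by 4.40 and S1pr5 by 4.31 with the label Pdcd1 cKO.

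Between tumor and spleen, 5 of 36 listed genes were at least 2-fold higher in the tumor and 19 lower with the label Pdcd1fl/fl, and 4 of 40 higher and 24 lower with the label Pdcd1 cKO, with medians of −1.27 and −1.39. By class these were 2 and 1 of the S1P axis higher and 3 and 4 lower, 4 and 5 receptors lower, 6 and 6 adhesion genes lower, 4 and 6 transcription factors lower, 1 and 0 maturation genes higher and 2 and 2 lower, and 2 and 3 ligands higher and 0 and 1 lower. Of all genes, 28% and 21.1% were at least 2-fold higher and 27.2% and 35.3% lower. Il7r, the survival receptor of naive and memory T cells, gave −5.99 and −5.28. Cxcr4, the receptor for Cxcl12, gave −3.83 and −4.77. Itgb7 gave −3.66 and Foxo1, a factor that drives Klf2, −3.59 with the label Pdcd1fl/fl, and Klf3 −4.10 and Gpr183 −4.05 with the label Pdcd1 cKO. The ligands of the Cxcr3 receptor were higher in all tumor cells with CD8 RNA: Cxcl10 stood at 325 CPM against 6.52 in the spleen, 5.64, and at 191 against 28.1 CPM, 2.77. Cxcl9 was read with 93 and 144 UMIs in tumors and 0 in spleen. The lower ends of its intervals were log2 ratios of 2.36 and 5.32. Plpp3, which breaks down S1P, gave 1.98 (−0.68 to 7.35) and 2.14, S1pr2 2.40 and Cd24a 1.59 (−0.40 to 4.70) with the label Pdcd1fl/fl, and Cxcl16 4.25 (2.62 to 6.57) from 3 splenic UMIs with the label Pdcd1 cKO.

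In cells with fewer than 3 UMIs of other lineages, 2 of 29 listed genes were at least 2-fold higher in the tumor than in the spleen and 15 lower with the label Pdcd1fl/fl, and 2 of 36 higher and 23 lower with the label Pdcd1 cKO. Of all genes 11.7% and 11.8% were higher in this set and 46.6% and 47.6% lower. Il7r gave −5.17 and −5.84 and Cxcr4 −2.87 and −4.24. Itgb7 gave −2.58 and Foxo1 −2.80 with the label Pdcd1fl/fl, and Klf3 −5.74 and Gpr183 −3.55 with the label Pdcd1 cKO. Cxcl10 stood at 21.3 and 15.9 CPM in these tumor cells, with ratios of 1.69 (0.51 to 2.99) and −0.82 (−1.36 to −0.32), and Cxcl9 had 0 and 4 UMIs. Most UMIs of both ligands in tumor cells with CD8 RNA thus lay in cells that also held RNA of other lineages. S1pr2 gave 0.99 (−2.14 to 4.57) with the label Pdcd1fl/fl, where Cd24a had 0 UMIs. Plpp3 had 1 and 2 UMIs, and Cxcl16 gave 2.16 (−0.97 to 5.74) with the label Pdcd1 cKO.

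Genes with levels most like each member were sought over 20 sums of UMIs, which are sets of cells from the 6 libraries sorted by CD8, immature-gene and Cd24a RNA, each with at least 20 cells, among 10959 genes with at least 200 UMIs. Sums of the same library share its mouse or pool and its preparation, so Pearson's r is a description only. Among the members, Klf2 and Cd69 ran together most, at 0.929, followed by S1pr1 with Klf2 at 0.919, S1pr1 with Cd69 at 0.884 and Ccr7 with S1pr1 at 0.815. S1pr1 and Cx3cr1 ran against each other most, at −0.682, followed by Ccr9 with Cd44 at −0.663, of 36 pairs. Nearest to Ccr7 were Limd2 (0.878), Gm47015 (0.868) and Vps37b (0.867), and to S1pr1 Elf1 (0.989), Gm2682 (0.985) and Gimap6 (0.982). Klf2 had Galnt11 (0.986), Sidt1 (0.972) and Chd7 (0.969) as its nearest genes. The nearest to Cd69 were genes switched on by recent stimulation, Dusp2 (0.989), Tnfaip3 (0.973) and Btg2 (0.971).

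Ccr9 had Cmss1 (0.984), Sart3 (0.952) and Sp110 (0.948) nearest to it. Cxcr3 ran with the effector genes Hopx (0.938), Ccl5 (0.934) and Adgre5 (0.918). The killer receptor genes Klrc2 (0.886) and Klrk1 (0.812) were nearest to Cxcr6, with Dok2 (0.800). Cx3cr1 had Stub1 (0.931), Tm4sf1 (0.926) and Cd81 (0.925), and Cd44 had Il10rb (0.947), Dennd5a (0.935) and Hvcn1 (0.931).

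All 9 genes are annotated as protein coding on GRCm39. Ccr7 (ENSMUSG00000037944) lies on the minus strand of chromosome 11 at 99035022 to 99045911, and S1pr1 (ENSMUSG00000045092) on the minus strand of chromosome 3 at 115504071 to 115508721. Klf2 (ENSMUSG00000055148) lies on the plus strand of chromosome 8 at 73072726 to 73075502, and Cd69 (ENSMUSG00000030156) on the minus strand of chromosome 6 at 129244288 to 129252399. Cxcr3 (ENSMUSG00000050232) lies on the minus strand of chromosome X at 100775141 to 100777875, and Cd44 (ENSMUSG00000005087) on the minus strand of chromosome 2 at 102641486 to 102732010. Chromosome 9 holds 3 members: Cx3cr1 (ENSMUSG00000052336) on the minus strand at 119877749 to 119898945, Ccr9 (ENSMUSG00000029530) on the plus strand at 123507181 to 123613395, and Cxcr6 (ENSMUSG00000048521) on the plus strand at 123635534 to 123640825. Ccr9 and Cxcr6 are neighbours 22138 bases apart with no annotated gene between them. They did not share a pattern: Ccr9 was highest in the thymus and Cxcr6 in the tumors, with a Pearson's r of −0.232 over the 20 sums.

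The promoters of these neighbours were read for motifs of Runx (TGTGGT), T-box (AGGTGTGA), Klf (CCNCACCC) and AP-1 (TGACTCA) factors on both strands, in the 300 bases from 250 before to 50 after the RefSeq start on GRCm38.p6. A match is only a description: of 32851 promoters, 16.8% hold the Runx motif, 1.28% the T-box motif, 16.6% the Klf motif and 5.20% the AP-1 motif. Ccr9 (chromosome 9, 123766961 to 123767260, plus strand) holds 1 Klf match at position −76 from the start and Cxcr6 (chromosome 9, 123806227 to 123806526, plus strand) 1 Runx match at −10, read on the other strand and so printed as ACCACA. Capitals mark the matches in the sequences.
Ccr9 promoter: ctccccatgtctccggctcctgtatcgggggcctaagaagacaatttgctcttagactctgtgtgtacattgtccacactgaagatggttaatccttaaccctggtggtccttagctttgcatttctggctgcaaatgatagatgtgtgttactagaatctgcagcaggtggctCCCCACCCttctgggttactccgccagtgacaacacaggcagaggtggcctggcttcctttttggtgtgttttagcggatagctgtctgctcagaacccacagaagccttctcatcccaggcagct
Cxcr6 promoter: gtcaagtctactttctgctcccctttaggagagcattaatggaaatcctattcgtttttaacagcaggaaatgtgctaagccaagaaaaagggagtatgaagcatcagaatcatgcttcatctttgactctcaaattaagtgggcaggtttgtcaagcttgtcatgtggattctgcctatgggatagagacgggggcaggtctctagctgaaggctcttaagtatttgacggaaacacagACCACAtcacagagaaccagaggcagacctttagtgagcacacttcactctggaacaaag

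Of the other members with a promoter in the reference, Cxcr3 holds 2 Runx matches and Cx3cr1 1, and Klf2 and Cd44 hold none of the 4 motifs. No T-box or AP-1 match was found in any of the 6. The promoters of Ccr7, S1pr1 and Cd69 were not analysed here.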

How the data were processed

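Per the labels, the authors aligned PIPseq reads with the PIPseq pipeline (version 3.2) to GRCm39 and deposited raw UMI counts per gene and called barcode. The annotation release of the authors is not stated. Gene positions are from GENCODE M39, and promoters from RefSeq. No member is among the 27 symbols shared by several genes. From these counts, CPM were computed on the sum of a set of filtered cells, with an exact Poisson interval. Intervals of log2 ratios came from the exact binomial distribution given the total, and those of shares, taken from cells thinned to 1000 UMIs, by Clopper and Pearson's method, each at 95%. A floor of 3 counts stood in for 0, which makes a ratio a bound. A gene counted as at least 2-fold apart needed 20 UMIs in the sums compared. No test between genotypes within a tissue was possible with 1 library each.

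Genes were named by rule: the 9 members, Pdcd1, CD8, Cd4 and sex-linked genes as checks, up to 5 of the 49 further genes farthest apart each way, and for each member the 3 genes with the highest Pearson's r of log2(CPM + 5). A few genes that this rule names are not analysed here. Members and lists were chosen with earlier results of these data known. The thymic cells with CD8 RNA and no immature gene, as a set for ratios between libraries, and the cell splits within restricted sets were added after seeing the data. Python 3.11.15, numpy 2.4.6, scipy 1.17.1, pandas 2.3.3 and matplotlib 3.10.9 were used.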

Additional observations from a re-analysis of the deposited data

Results flagged for a closer look

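The genotype ratio of 4 members turned direction between tissues, with intervals clear of 0 on both sides. They were 4 of the 8 members with at least 20 UMIs in each tissue, against 18.7% of 10549 genes. The difference between tissues was not tested, since each ratio compares 1 library with 1 other, and the directions rest on labels that Pdcd1 RNA goes against in thymus and spleen and does not tell apart in the tumors. Ccr7 had a log2 ratio, Pdcd1 cKO over Pdcd1fl/fl, of 0.97 in the thymus and −2.06 in the tumors. In thymic cells with CD8 RNA and no immature gene Ccr7 gave 0.56, and in tumor cells with fewer than 3 UMIs of other lineages −2.95. S1pr1 had 0.94 in the thymus, −0.53 in the spleen and −0.95 in the tumors, and 0.46 and −1.38 in the restricted thymic and tumor sets. Klf2 had 0.39 in the thymus and −1.39 in the tumors. In the restricted sets Klf2 gave −0.16 and −2.55, so its turn of direction did not hold there. Cd44 had 0.65 in the thymus, 0.29 in the spleen and −0.94 in the tumors, and −0.14 and −0.49 in the restricted sets, where both intervals spanned 0.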

How the results depend on the processing

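Each ratio between genotypes was set against 323 alternative values over 27 results, of which 269 stayed inside the interval, 54 moved out of it and 0 reversed a difference of at least 2-fold. Of 396 alternatives to the 36 tissue ratios, 267 were the same, 128 moved and 1 reversed a difference of at least 2-fold, as a bound from 0 UMIs. Smaller ratios that changed sign are not in that 1. Of 482 for cells with against without CD8 RNA, 411 were the same, 64 moved and 7 reversed a difference of at least 2-fold. Of these 7, 5 are bounds over 0 UMIs and no reversal was read in them. For thymic maturation 159 of 198 were the same, 38 moved and 1 reversed, and for shares 51 of 108 were the same and 57 moved, most of them without thinning. The count of members at least 2-fold apart was the same in 80 of 91 alternatives. Where a cause is not given, the cause was not tested.

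In the thymus, 2 members differed at least 2-fold between genotypes. The count became 4 with the strict filter (1000 genes, 2000 UMIs, 10% mitochondrial), 6 with totals free of mitochondrial, ribosomal protein and Malat1 UMIs, 6 with median-of-ratios scaling, 1 with every cell weighing the same, 4 with all filtered cells and 7 with a fold of 1.5. In the spleen it went from 2 to 0 with the strict filter and to 1 with either other scaling. In the tumors it went from 3 to 5 with cells thinned to 1000 UMIs and to 7 with a fold of 1.5.

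Cx3cr1 in spleen over thymus with the label Pdcd1fl/fl was at most 0.26 under the strict filter, with 0 UMIs in 67 splenic cells. Where cells without CD8 RNA held 0 UMIs, the floor of 3 counts gave lower bounds only. For cells with against without CD8 RNA in the tumor library labelled Pdcd1fl/fl these were at least −2.90 for S1pr1 without cells of other lineages and −0.88 thinned, and −1.84 and −0.62 for Cd69. With the label Pdcd1 cKO, thinned Cd69 was at least −1.65. Ccr7 reversed to −1.01 and Cd69 to −0.94 in that library without cells of other lineages, from 7 and 2 UMIs in 9 cells without CD8 RNA. Cxcr6 in thymic cells with CD8 RNA and no immature gene, over immature cells without CD8 RNA, reversed to −0.0665 when thinned with the label Pdcd1fl/fl.

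Smaller ratios also changed sign. Among thymic genotype ratios, Klf2 went from 0.39 to −0.16 in cells with CD8 RNA and no immature gene. In the same cells Cxcr3 went from 0.96 to −0.20 and Cd44 from 0.65 to −0.14. Cd44 in tumor over spleen with the label Pdcd1fl/fl went from 0.52 to −0.23 with 2 CD8 UMIs asked for and −0.53 thinned. Cxcr6 in spleen over thymus with the label Pdcd1 cKO went from 0.58 to −0.11 thinned, and Ccr7 from −0.39 to 0.12 in all filtered cells. The median of all genes moved with scaling: in the thymus from −0.15 to 0.05 (reduced total) and 0.03 (median of ratios), in the spleen from 0.18 to 0.05 and 0.00, and in the tumors from −0.15 to −0.02 (median of ratios). In spleen over thymus it moved from −0.40 to −0.22 and 0.02 with the label Pdcd1fl/fl and from −0.00 to −0.15 (reduced total) with the label Pdcd1 cKO, and in tumor over spleen from −0.36 to 0.19 (median of ratios) with the label Pdcd1 cKO. No scaling turned a member whose interval was clear of 0. No paired analysis was possible because within a tissue each group had 1 library and the labels give no pairs. With tissue as a block instead, a fit added after seeing the data took the 3 tissues as if they were replicates. The mean of the 3 genotype ratios then had a t interval clear of 0 for 1 of 8 members, against 4.94% of 10549 genes. That member was Cxcr6, at 1.72 (0.59 to 2.85), already seen to be higher with the label Pdcd1 cKO in each tissue. Each ratio compares 1 library with 1 other, and the splenic ratio of Cxcr6 fell to 0.52 under the strict filter. The t interval is thus no replicate check of a genotype difference.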
